A study of Mus musculus with 20 samples.

Results

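Genes of brain phagocytes, 8 of the 54532 genes counted in the hypothalamus of mice on a control or a glycation-lowering (Gly-Low) diet, were followed across 20 RNA sequencing libraries in 5 groups. They are Mpeg1, Ctss and Cd68, whose proteins work in lysosomes and phagosomes, the leukocyte phosphatase gene Ptprc (CD45), the Fc gamma receptor genes Fcgr1, Fcgr2b and Fcgr3, and Fcer1g, which encodes the signalling chain of Fc receptors. The 8 genes were chosen by name with earlier results of these data known, among them those of old control against young control. Their fold changes between those 2 groups, and between old Gly-Low and the same young controls, are therefore given as a description with no p-value. How far the choice bears on p-values of the other comparisons was not tested. All 8 were in the count table, and all 8 passed the filter on low counts in every comparison.

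Gly-Low chow is meant to lower glycation, in which reactive by-products of sugar metabolism attach to proteins without an enzyme. All animals were male C57BL/6J mice, and the tissue was whole flash-frozen hypothalamus. The young control group (4 libraries) was 3 months old and had eaten the control diet for 1 week. The acute control (5 libraries) and acute Gly-Low (4 libraries) groups were 4 months old and had eaten their diet for 1 week. The old control (4 libraries) and old Gly-Low (3 libraries) groups were 25 months old and had eaten their diet for 5 months. Whether libraries stem from different animals is not stated in the labels, so p-values measure the spread between samples, which may be technical. Levels are counts scaled to a common library size (CPM), and fold changes are log2 values from edgeR with their standard error (SE). A gene is called where the p of edgeR's quasi-likelihood test, with Benjamini-Hochberg adjustment over all genes tested, was under 0.05.

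Microglia and border macrophages clear debris by taking it into phagosomes that fuse with lysosomes, where proteases break it down. Antibody-coated particles are bound by Fc gamma receptors: FcγRI (Fcgr1) and FcγRIII (Fcgr3) activate the cell through the FcRγ chain (Fcer1g), whose ITAM motif recruits the kinase Syk, whereas FcγRIIB (Fcgr2b) carries an inhibitory ITIM motif. CD45 removes inhibitory phosphates from Src-family kinases and so sets how readily such receptors signal.

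The 4 receptor-system genes lie on GRCm38 chromosomes 1 and 3: Fcgr2b (ENSMUSG00000026656) at chr1:170958617-170976547, Fcgr3 (ENSMUSG00000059498) at chr1:171051174-171064935, Fcer1g (ENSMUSG00000058715) at chr1:171229572-171234365 and Fcgr1 (ENSMUSG00000015947) at chr3:96282909-96293969, all on the minus strand. Mpeg1 (ENSMUSG00000046805) lies at chr19:12460779-12465283 (plus strand), Ctss (ENSMUSG00000038642) at chr3:95526786-95556403 (plus), Cd68 (ENSMUSG00000018774) at chr11:69664213-69666153 (minus) and Ptprc (ENSMUSG00000026395) at chr1:138062861-138175708 (minus). All 8 are annotated as protein coding. The libraries were not directional, and Gm38204 overlaps Fcgr2b on the other strand, so reads of that pair cannot be told apart. Hmgb1-ps5 overlaps Ctss, A130071D04Rik overlaps Ptprc and Mir6546 overlaps Fcgr3, each on the same strand.

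Fcgr2b and Fcgr3 share coding sequence, which limits how well short reads separate the inhibitory from the activating receptor. The longest run they share exactly is 129 bases over the junction of 2 exons, shown in capitals with 30 bases of each gene on either side in lower case. In Fcgr2b it is coding bases 278 to 406 (chr1:170966674-170968081, minus strand, intron not printed), and in Fcgr3 coding bases 263 to 391 (chr1:171054167-171057792, minus strand, intron not printed).
Fcgr2b: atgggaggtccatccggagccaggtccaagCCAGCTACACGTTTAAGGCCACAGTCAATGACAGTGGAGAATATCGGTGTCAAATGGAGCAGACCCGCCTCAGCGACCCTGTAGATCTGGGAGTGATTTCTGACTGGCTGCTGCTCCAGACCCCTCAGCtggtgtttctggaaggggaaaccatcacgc
Fcgr3: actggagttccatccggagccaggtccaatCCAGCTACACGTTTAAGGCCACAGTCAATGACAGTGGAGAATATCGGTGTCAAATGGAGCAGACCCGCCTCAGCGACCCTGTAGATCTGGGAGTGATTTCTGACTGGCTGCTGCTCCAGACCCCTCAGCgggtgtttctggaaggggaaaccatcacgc
Of the 50-base windows of the coding sequence, 17.1% of those of Fcgr2b (166 of 971) and 22.1% of those of Fcgr3 (166 of 752) occurred in the other gene. Neither gene shared a 50-base window with Fcgr1 or Fcgr4. How the authors' counting treated reads of the shared stretch is not given in the sources used here, so the split of counts between Fcgr2b and Fcgr3 is uncertain to that extent.

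Per kilobase of transcript, Ctss was the most abundant of the 8 genes in every group, from 56.8 CPM per kilobase in the acute controls to 171 in the old controls. Fcer1g followed in the 3 groups on control diet, and Ptprc was the lowest of the 8 in every group, from 0.686 to 1.81 CPM per kilobase. Counts behind a single value ran from 44 (Fcgr1, acute controls) and 52 (Ptprc, young controls) to 7426 (Ctss, old controls). Total counts ran from 15848372 to 27399753 per library.

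Some libraries stood apart in make-up. Acute controls 2, 3 and 5 held summed levels of 8 pituitary genes of 61187, 3704 and 32501 CPM, against 20.9 to 1223 CPM in the other libraries. Mitochondrial transcripts took 17.0 to 23.3% of the counts of acute Gly-Low libraries and 5.35 to 9.11% of those of acute controls. The slope of a library's log2 CPM deviation on log2 transcript length was -0.43 to -0.23 in acute Gly-Low and 0.14 to 0.23 in acute controls, so that short transcripts ran high in the former. Among the young controls the slope was 0.22 in library 4 and -0.27 to -0.11 in the other 3. Results that rest on these libraries are given below with and without them, or with an offset for transcript length.

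Microglia markers were present throughout, and markers of infiltrating blood cells were low. The 12 homeostatic microglia markers summed to 336 to 369 CPM in young controls, 303 to 375 in acute controls, 366 to 392 in acute Gly-Low, 452 to 512 in old controls and 456 to 514 in old Gly-Low, and none was at 0. The 10 border macrophage markers summed to 12.4 to 21.4, 13.5 to 20.9, 37.3 to 47.7, 14.4 to 28.0 and 29.7 to 30.8 CPM in the same order of groups. All 8 T and NK cell markers averaged under 1 CPM in each group and summed to at most 1.91 CPM in any library, the 7 B cell markers to at most 3.55 CPM, and the 10 monocyte and neutrophil markers to at most 22.8 CPM. In bulk tissue, more cells of a type and more RNA per cell cannot be told apart, which holds for each result here.

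In the old controls, all 8 genes averaged higher than in the young controls, by 1.45-fold (Fcer1g) to 3.51-fold (Mpeg1), and 7 of the 8 did not overlap between the groups. The libraries of the 2 groups did not overlap, with the old higher, in 2.75% of all genes. Their median log2 fold change was 1.23, beside 0.02 over all genes tested. The 12 homeostatic microglia markers also averaged higher, 12 of 12, with a median of 0.55 and a range from 0.06 to 1.02. The 10 monocyte and neutrophil markers were positive in 10 of 10, with a median of 1.64, and summed to 2.16 to 9.38 CPM in young and 2.59 to 21.5 CPM in old controls. Of these 10, 8 averaged under 1 CPM in young and 7 in old controls. Some may have passed the filter only through the old libraries, so nothing is read from that median. The part of either list in the difference of the 8 genes was not tested. Since these values chose the genes, nothing is read from the counts.

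Mpeg1, which encodes the pore-forming perforin-2 of macrophage phagosomes, had the largest difference with age. It was at 27.7, 36.2, 27.2 and 25.3 CPM in the young controls and at 94.1, 119.7, 111 and 88.3 CPM in the old controls. Every old library thus lay far above every young one. The log2 fold change was 1.81 ± 0.18 (SE). In old Gly-Low, Mpeg1 was at 76.3, 93.7 and 104 CPM, within or just below the range of the old controls and above every younger library.

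Ctss encodes cathepsin S, a cysteine protease that trims the invariant chain for antigen presentation. Its level was 85.6, 98.1, 93.0 and 53.1 CPM in the young controls and 179, 263, 299.6 and 186 CPM in the old controls, with no overlap and a log2 fold change of 1.47 ± 0.25 (SE). The spread among old controls was wide, and library 3, with the highest Ctss, had the lowest length slope of that group (-0.20). Old Gly-Low libraries were at 133, 150.2 and 178 CPM, all between the 2 control groups.

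Cd68 encodes macrosialin, a heavily glycosylated protein of the late endosomal and lysosomal membrane of macrophages. It was at 7.78, 8.52, 8.88 and 4.73 CPM in the young controls and 11.3, 11.8, 14.6 and 14.5 CPM in the old controls. The groups did not overlap, and the log2 fold change was 0.78 ± 0.27 (SE). Old Gly-Low libraries held 8.33, 15.4 and 14.1 CPM, so that library 1 fell among the young controls and the other 2 at or near the top of the old controls.

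Ptprc had the least scatter of the 8 genes among old controls, with a coefficient of variation of 9.21%. It was at 3.51, 3.04, 3.81 and 2.55 CPM in the young controls and 8.69, 7.34, 8.88 and 9.07 CPM in the old controls, a log2 fold change of 1.37 ± 0.22 (SE) with no overlap. Old Gly-Low libraries were at 7.90, 7.04 and 10.2 CPM, on both sides of the old control mean of 8.49 CPM.

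Among the Fc gamma receptors, the inhibitory Fcgr2b differed most with age. Fcgr2b was at 5.58, 5.14, 4.27 and 4.76 CPM in the young controls and 10.2, 12.1, 14.0 and 16.1 CPM in the old controls, a log2 fold change of 1.39 ± 0.25 (SE). Fcgr1, the high-affinity receptor, was at 3.64, 3.97, 3.60 and 2.92 CPM against 5.09, 9.34, 6.42 and 8.80 CPM (1.05 ± 0.24). Fcgr3, the low-affinity activating receptor, was at 12.2, 12.5, 14.9 and 8.09 CPM against 16.7, 27.9, 33.6 and 25.2 CPM (1.10 ± 0.28). None of the 3 receptors overlapped between young and old controls. In old Gly-Low, Fcgr2b was at 10.2, 20.5 and 15.7 CPM, with 1 library above every old control, while Fcgr1 was at 5.81, 6.03 and 5.71 CPM and Fcgr3 at 14.6, 25.0 and 23.1 CPM.

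Fcer1g was the member whose control groups overlapped. It was at 10.7, 14.1, 15.6 and 7.53 CPM in the young controls and 13.4, 16.4, 23.2 and 17.3 CPM in the old controls, with a log2 fold change of 0.53 ± 0.27 (SE), the smallest of the 8. Young control 4, the lowest value, was also the library with the highest length slope of its group, and Fcer1g has the shortest transcript of the 8 genes (median 678.5 bases). With an offset for transcript length in each library the log2 fold change was 0.79. Old Gly-Low libraries were at 11.5, 13.3 and 15.2 CPM, inside the range of the young controls. That likeness depended on transcript length. The log2 fold change of old Gly-Low against young control was 0.16, and 0.73 with the length offset.

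**Figure D1:**
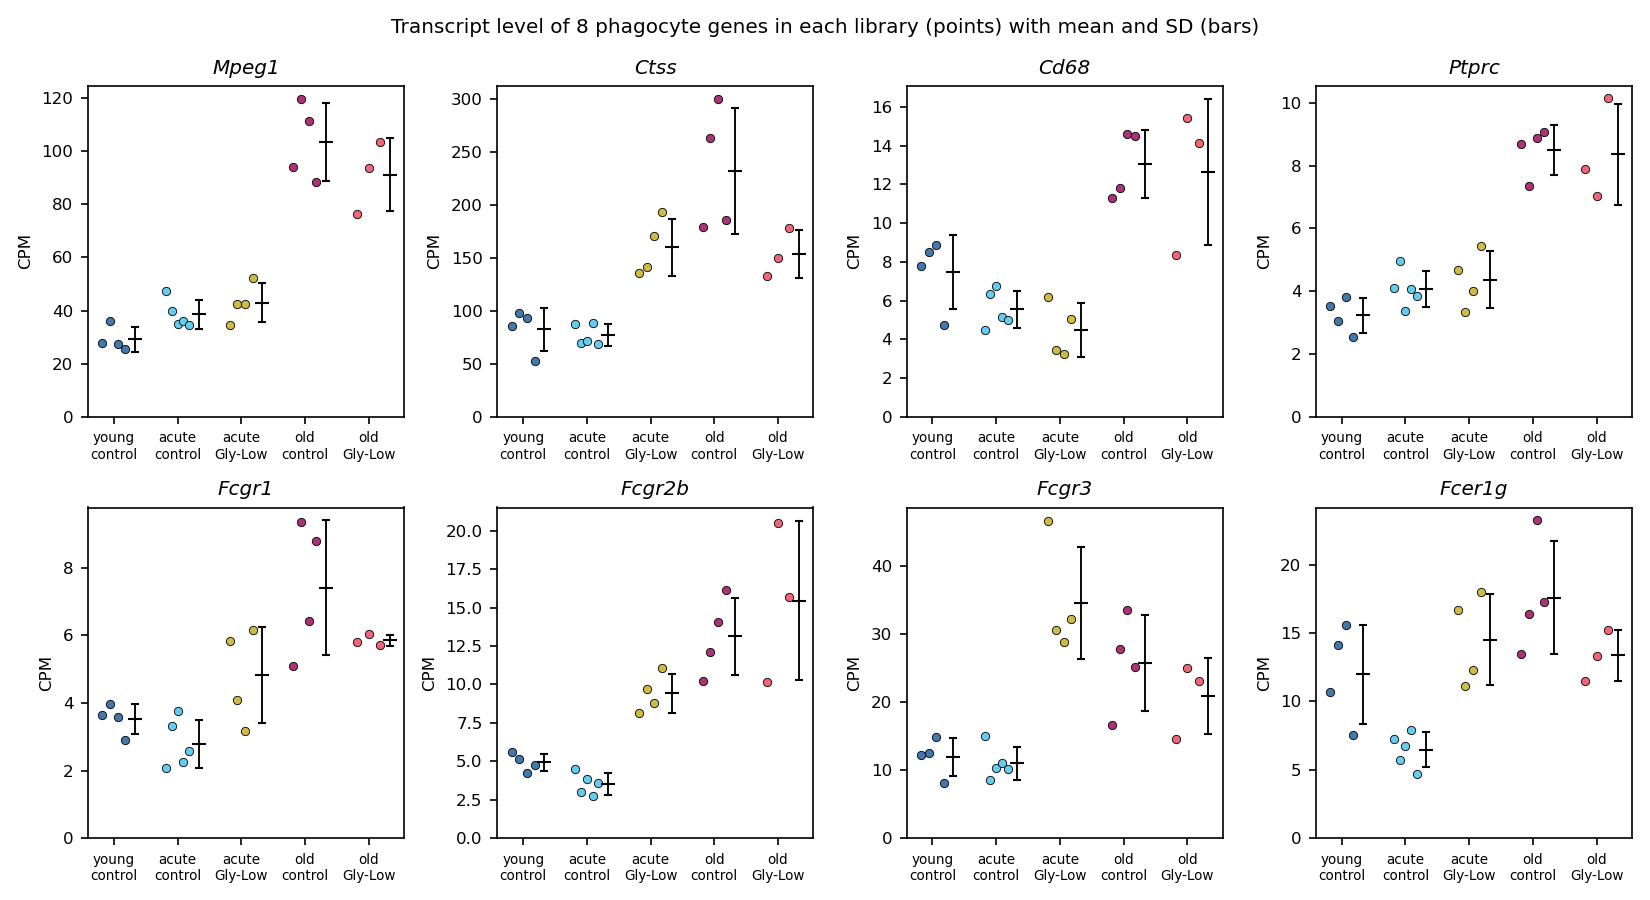
Transcript level of the 8 genes (y axis, CPM, a separate scale for each gene, starting at 0) in each library of the 5 groups (x axis). Points are libraries and bars are the mean and SD of a group; for Mpeg1 and Ptprc all 7 old libraries lie above all 13 younger ones, whereas Fcgr3 is highest in acute Gly-Low.

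The number of the 8 genes called with age depended on the fit, and is given with nothing read from it. Only Mpeg1 of the 8 was called, where 0.0328% of 18281 genes were called higher (6 genes). With DESeq2, 6 of the 8 were called, where 0.832% of genes were called higher, and with all 20 libraries in the edgeR fit 5 of the 8, where 0.367% of genes were called higher. Mpeg1 itself lost its call in the fit on the 2 groups alone, and without old control 2, young control 1 or young control 3. In old Gly-Low against the same young controls, the log2 fold changes were 1.65 (Mpeg1), 0.90 (Ctss), 0.76 (Cd68), 1.38 (Ptprc), 0.73 (Fcgr1), 1.65 (Fcgr2b), 0.81 (Fcgr3) and 0.16 (Fcer1g). Of these, 1 of 8 was called, Mpeg1, where 0.00547% of genes were called higher (1 gene), and 5 of 8 did not overlap, where 6.04% of all genes did not overlap and were higher.

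Old Gly-Low libraries were also set against the acute controls, 2 groups that the age contrast does not use; age, diet, time on diet and arm of the study differed together and cannot be told apart. Members called higher were 4 of 8, where 0.22% of 19061 genes were called higher. Fcgr2b averaged 3.54 ± 0.71 CPM (SD) in the 5 acute controls and 15.5 ± 5.15 CPM in the 3 old Gly-Low libraries, and so rose by 2.13 ± 0.22 on the log2 scale (edgeR adjusted p = 0.000223). Mpeg1 rose from 38.5 ± 5.33 to 91.2 ± 13.8 CPM (1.24 ± 0.16, edgeR adjusted p = 0.00144), Ctss from 77.0 ± 10.1 to 154 ± 22.7 CPM (1.00 ± 0.20, edgeR adjusted p = 0.0444), and Ptprc from 4.07 ± 0.58 to 8.36 ± 1.61 CPM (1.04 ± 0.21, edgeR adjusted p = 0.0444). These acute controls also serve the acute diet comparison. Each of these 4 was higher in all 3 old Gly-Low libraries than in all 5 acute controls.

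The other 4 members had similar sizes of difference but did not pass. Cd68 differed by 1.19 ± 0.26 (SE, edgeR adjusted p = 0.0639), Fcer1g by 1.05 ± 0.25 (edgeR adjusted p = 0.0992), Fcgr1 by 1.06 ± 0.26 (edgeR adjusted p = 0.127) and Fcgr3 by 0.92 ± 0.25 (edgeR adjusted p = 0.216). In all, 7 of the 8 did not overlap, all but Fcgr3, where 4.19% of all genes did not overlap and were higher. DESeq2 called 7 of the 8, where it called 0.62% of genes higher. With the length offset 5 of the 8 were called, where 52 genes were called in all. Cd68 (edgeR adjusted p = 0.0267) and Fcer1g (edgeR adjusted p = 0.04455) then passed, and Ptprc did not (edgeR adjusted p = 0.187). Ptprc also did not pass with no filter (edgeR adjusted p = 0.140) or on the 2 groups alone (edgeR adjusted p = 0.133). Without acute controls 2, 3 and 5 none of the 8, and none of all genes, was called, with log2 fold changes of 2.09 for Fcgr2b and 1.13 for Mpeg1, and leaving out any library of the 2 groups left 2 or 3 calls, since Ctss and Ptprc did not pass then. The homeostatic microglia markers had a median of 0.53 in this comparison with 0 of 12 called. Border macrophage markers had a median of 0.76 (0 of 9 called), and monocyte and neutrophil markers one of 2.20 (0 of 10 called, 7 positive), with sums of 1.31 to 6.29 CPM in acute controls and 9.69 to 10.7 CPM in old Gly-Low. All 10 of the latter averaged under 1 CPM in acute controls, and 6 in old Gly-Low. Of the 10 border macrophage markers, 5 and 4 did. Some of both lists may have passed the filter only through libraries where they were high. Nothing is read from either median. The part of these lists was not tested.

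After 5 months of Gly-Low in old mice, no member was called against the old controls with which they shared age and time on diet. None of 18281 genes was called (0%), 433 genes and 0 members had an unadjusted p under 0.05, and DESeq2 called 2 genes and 0 members. Unadjusted p was under 0.05 for 660 genes and 1 member with DESeq2. With the replicate block in edgeR it was so for 3215 genes and 1 member, and 0 genes were called. These old controls also serve the age contrast, so the 2 sets of fold changes are not independent. Ctss had the largest difference, -0.57 ± 0.26 (SE), with a 95% interval from -1.15 to 0.0057, edgeR adjusted p = 0.953. Its 3 old Gly-Low libraries (133 to 178 CPM) lay below the 4 old controls (179 to 299.6 CPM), the sole member whose groups did not overlap. Among all genes 3.47% did not overlap and were lower. The rank of Ctss depended on transcript length. With the length offset it was at -0.38, and the other members ran from -0.35 (Fcgr1) to 0.39 (Fcgr2b).

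For the other 7 members the old groups overlapped. The log2 fold changes were -0.16 ± 0.19 for Mpeg1, -0.02 ± 0.29 for Cd68, 0.00 ± 0.23 for Ptprc, -0.32 ± 0.26 for Fcgr1, 0.26 ± 0.26 for Fcgr2b, -0.28 ± 0.30 for Fcgr3 and -0.38 ± 0.29 for Fcer1g. The intervals still held changes of some size: from -0.57 to 0.25 for Mpeg1, the narrowest, and from -1.01 to 0.26 for Fcer1g. The median over the 8 genes was -0.22, beside 0.03 over all genes tested. With the length offset the values were -0.33 (Mpeg1), 0.20 (Cd68), -0.26 (Ptprc), -0.35 (Fcgr1), 0.39 (Fcgr2b), -0.10 (Fcgr3) and -0.06 (Fcer1g). The median over the 8 genes was then -0.18.

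One week of Gly-Low in younger mice gave another pattern, with the Fc receptor system and Ctss higher and Mpeg1, Cd68 and Ptprc without a call. This split depended on transcript length: with an offset for it, Fcer1g was no longer higher (-0.06), Mpeg1 (0.69) and Ptprc (0.81) were called higher and Cd68 (-1.18) lower. Called higher were 5 of 8, and 0 lower, where 27.8% of 17161 genes were called higher and 30.5% lower. The median log2 fold change of the 8 genes was 0.93, beside -0.07 over all genes. With such a large share of genes called, the count for the 8 is read against that background, and the acute Gly-Low libraries differed from acute controls in mitochondrial share and length slope as given above.

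Fcgr3 had the largest acute difference. It was at 15.1, 8.59, 10.3, 11.1 and 10.1 CPM in the acute controls and at 46.7, 30.6, 28.8 and 32.2 CPM in acute Gly-Low. Each Gly-Low library lay far above each control, with a log2 fold change of 1.66 ± 0.19 (SE, edgeR adjusted p = 5.7e-06). The acute Gly-Low mean of 34.6 ± 8.21 CPM (SD, n = 4) was also the highest mean of the 5 groups, although its range overlapped that of the old controls.

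Fcgr2b, the inhibitory receptor, and the signalling chain rose as well, the chain only without the length offset. Fcgr2b was at 4.52, 3.01, 3.88, 2.73 and 3.57 CPM in the acute controls and at 8.16, 9.73, 8.78 and 11.0 CPM in acute Gly-Low, a log2 fold change of 1.43 ± 0.21 (SE, edgeR adjusted p = 5.19e-05). Fcer1g was at 7.28, 5.69, 6.75, 7.91 and 4.69 CPM against 16.7, 11.1, 12.3 and 18 CPM (1.18 ± 0.21, edgeR adjusted p = 0.000219). Neither gene overlapped between the groups.

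Ctss was at 87.2, 69.7, 71.1, 88.8 and 68.3 CPM in the acute controls and at 136, 141, 170.1 and 193 CPM in acute Gly-Low, a log2 fold change of 1.07 ± 0.14 (SE, edgeR adjusted p = 1.71e-05). Fcgr1 was at 2.09, 3.32, 3.76, 2.27 and 2.57 CPM against 5.84, 4.10, 3.18 and 6.17 CPM, with one Gly-Low library inside the control range (0.80 ± 0.28, edgeR adjusted p = 0.0243). Its call was lost with no filter, and without acute control 4, or library 1 or 4 of acute Gly-Low (edgeR adjusted p from 0.0563 to 0.0863 without these libraries). Without overlap and higher in acute Gly-Low were 4 of 8, where this was so for 21.1% of all genes.

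The other 3 members overlapped between the acute groups. Mpeg1 ran from 34.4 to 47.3 CPM in controls and 34.4 to 52.2 CPM in Gly-Low (log2 fold change 0.17 ± 0.15, interval -0.14 to 0.48). Ptprc ran from 3.36 to 4.97 and from 3.33 to 5.43 CPM (0.11 ± 0.24, interval -0.39 to 0.62). Cd68 ran from 4.47 to 6.75 and from 3.23 to 6.21 CPM (-0.29 ± 0.25, interval -0.83 to 0.25), and it was the member with the lowest mean in acute Gly-Low of all groups, 4.49 ± 1.41 CPM (SD, n = 4).

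**Figure D2:**
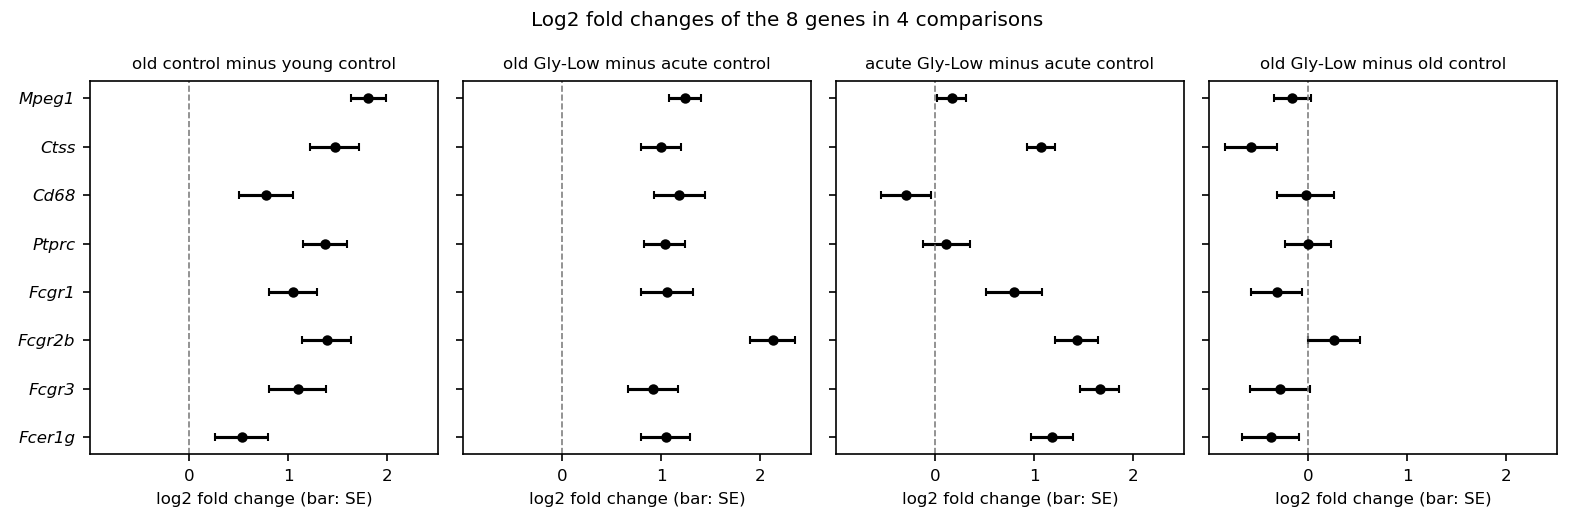
Log2 fold change (x axis) of each gene (y axis) in 4 comparisons, with bars of 1 SE. In the acute diet panel Fcgr3 (1.66) and Fcgr2b (1.43) lie farthest right and Cd68 (-0.29) lies left of 0; in the old diet panel no gene was called.

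The acute fold changes moved with transcript length. With an offset for each library's trend over transcript length, 6 of the 8 were called higher and 1 lower, where 23.9% of genes were called higher and 23.9% lower. Fcgr3 (1.14), Fcgr2b (1.00), Fcgr1 (0.89) and Ctss (0.58) kept their direction and call, with edgeR adjusted p from 9.5e-05 to 0.0169. Mpeg1 (0.69) and Ptprc (0.81), which have the longest transcripts of the 8, were now called higher. Fcer1g, which has the shortest, went from 1.18 to -0.06 (edgeR adjusted p = 0.803), and Cd68 went from -0.29 to -1.18 and was called lower (edgeR adjusted p = 0.000745). Without acute controls 2, 3 and 5 the same number, 5 of 8, was called higher, and the fold changes of those 5 ran from 0.84 (Ctss) to 1.38 (Fcgr3).

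**Figure D3:**
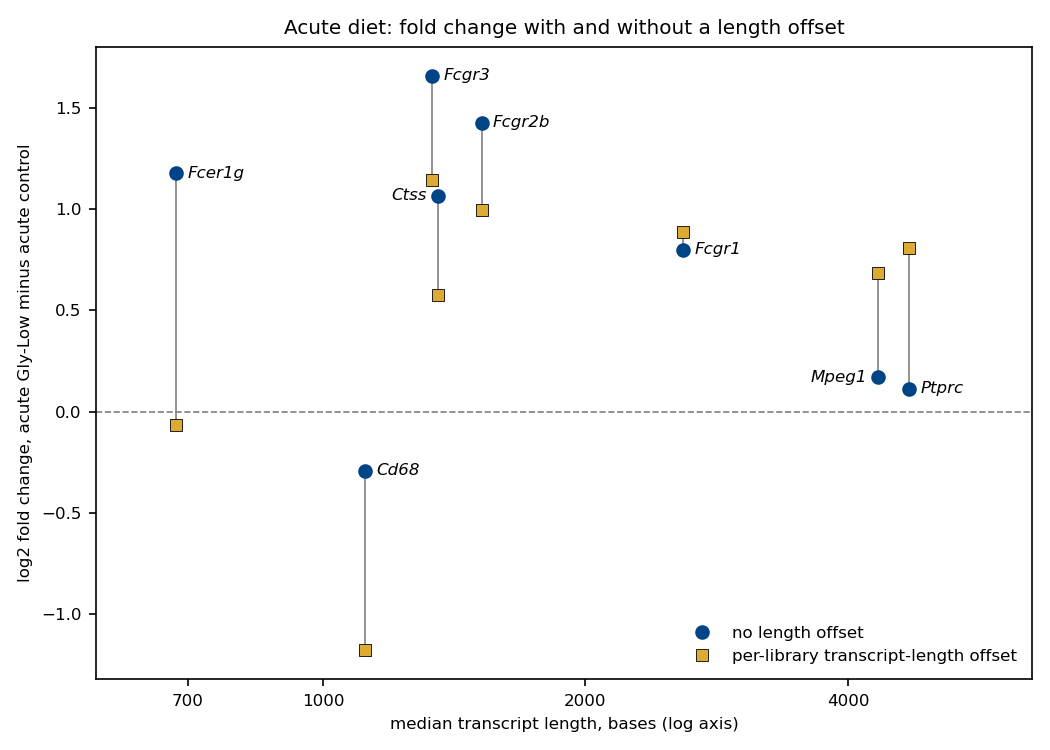
Log2 fold change of acute Gly-Low against acute control (y axis) by the median transcript length of each gene in bases (x axis, log scale), without (circles) and with (squares) a length offset. The pair of marks of Fcer1g spans 1.18 to -0.06, whereas Fcgr3, Fcgr2b, Fcgr1 and Ctss stay above 0.5 in both.

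Summed border macrophage markers were higher beside the acute result. The summed levels of all 10 did not overlap between the acute groups (13.5 to 20.9 against 37.3 to 47.7 CPM). Of 9 tested, 7 were called higher, where 27.8% of all genes were, and 0 lower, and their median was 1.35 (log2). The offset for length left 4 of 9 called higher and a median of 0.90. Of the 10 listed, 5 averaged under 1 CPM in acute controls and 2 in acute Gly-Low. Some may thus have passed the filter only through the Gly-Low libraries, and nothing is read from these counts and medians. By example, chosen after their values were seen, F13a1 went from 2.72 to 11.6 CPM and Mrc1, the mannose receptor, from 4.20 to 9.11 CPM. Of the 10 monocyte and neutrophil markers only 3 passed the filter, and these 3 were called higher (median 2.49, 1 of 3 with the length offset). All 10 averaged under 1 CPM in acute controls, so the 3 may have passed only through the Gly-Low libraries. Nothing is read from that count. The 10 markers summed to 1.31 to 6.29 CPM in controls and 3.41 to 22.8 CPM in Gly-Low. Homeostatic microglia markers were split, 6 of 12 called higher and 4 lower: P2ry12, also chosen so, went from 29.7 to 61.2 CPM, whereas Csf1r fell from 76.4 to 19.7 CPM. Whether these cells or transcripts account for part of the acute difference of the 8 genes was not tested.

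The diet effect differed between the arms for 5 members, tested as old Gly-Low minus old control less acute Gly-Low minus acute control over all 20 libraries. Called lower were 5 of 8, where 19.2% of 19061 genes were called lower. The differences were -1.95 ± 0.36 for Fcgr3 (SE, edgeR adjusted p = 0.000426), -1.65 ± 0.29 for Ctss (edgeR adjusted p = 0.000277), -1.56 ± 0.35 for Fcer1g (edgeR adjusted p = 0.00199), -1.18 ± 0.32 for Fcgr2b (edgeR adjusted p = 0.00759) and -1.12 ± 0.37 for Fcgr1 (edgeR adjusted p = 0.0245). The Fcgr1 call was lost with no filter (edgeR adjusted p = 0.0737), with the replicate block (edgeR adjusted p = 0.0638), and without any of libraries 1 and 4 of acute Gly-Low, 1 and 3 of old Gly-Low, and 2 of old control. Mpeg1 (-0.34 ± 0.23), Ptprc (-0.12 ± 0.30) and Cd68 (0.26 ± 0.37) were not called. With the length offset, 4 of 8 were called lower, where 13.2% of genes were, and 1 higher, where 9.84% were: Fcer1g (-0.02) and Fcgr2b (-0.68) lost their call, Mpeg1 (-1.16) was called lower and Cd68 (1.29) higher. Age, time on diet and library make-up differ between the arms and cannot be told apart.

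Control mice of the 2 arms that were near in age differed in 1 member. Fcer1g averaged 6.46 ± 1.28 CPM (SD) in the 5 acute controls and 12 ± 3.62 CPM in the 4 young controls, and the log2 fold change was -0.89 ± 0.23 (SE, edgeR adjusted p = 0.0318), where 4.37% of genes were called lower. The groups overlapped, as young control 4 was at 7.53 CPM. The call was lost with the length offset (-0.21, edgeR adjusted p = 0.605; 0.986% of genes were then called lower), and without any of young controls 1, 2 and 3 or acute controls 1, 2, 3 and 5. The other 7 members differed by -0.48 to 0.40 and none was called.

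Ratios of member counts within a library do not depend on its scaling. Fcgr2b made up 31.3, 29.1, 22.3 and 37.1% of the counts of Fcgr2b and Fcgr3 in the young controls and 38.0, 30.3, 29.5 and 39.0% in the old controls. In old Gly-Low the share was 41.2% (95% exact binomial interval 37.3 to 45.1), 45.0% (42.2 to 47.9) and 40.4% (37.5 to 43.4), above every old control. The highest old control, library 4 at 39.0%, had an interval from 36.1 to 42.0, which overlaps those of all but one of these. The share averaged 34.2% ± 5.00 (SD, n = 4) in old controls and 42.2% ± 2.48 (SD, n = 3) in old Gly-Low. The measure was set up over chosen genes and has no test, and border macrophage markers were also without overlap between these groups (14.4 to 28.0 against 29.7 to 30.8 CPM).

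In the acute arm the inhibitory share was 24.4% ± 3.08 (SD, n = 5) in controls and 22.0% ± 4.82 (SD, n = 4) in Gly-Low. The groups overlapped, so that the higher Fcgr2b and Fcgr3 levels of acute Gly-Low came with shares in the same range. These intervals cover counting error only, and the counts of both genes together ran from 284 to 1180 per library.

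The 2 lysosomal genes Ctss and Cd68 parted in the acute arm. The ratio of Ctss to Cd68 counts was 11.1 ± 0.44 (SD, n = 4) in young controls, 14.4 ± 3.91 (n = 5) in acute controls, 38.4 ± 12.7 (n = 4) in acute Gly-Low, 17.8 ± 4.31 (n = 4) in old controls and 12.8 ± 3.12 (n = 3) in old Gly-Low. The lowest acute Gly-Low library (21.8) lay above the highest acute control (19.5). Median transcripts of the 2 genes are 1355 and 1119 bases long.

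The 8 genes were also set against the homeostatic microglia markers of the same library, as a description. The mean log2 CPM of the 8 genes minus that of the 12 markers was -0.93 ± 0.33 (SD, n = 4) in young controls and -0.27 ± 0.25 (SD, n = 4) in old controls, and it was -0.49 ± 0.20 (n = 3) in old Gly-Low. The highest young control (-0.52) lay above the lowest old control (-0.60). In the acute arm it was -1.19 ± 0.13 (n = 5) in controls and -0.60 ± 0.23 (n = 4) in Gly-Low, with no overlap. Of the 12 markers, 6 were called higher and 4 lower in that arm, so they are no fixed reference there. The measure also has no length offset, on which acute values of single members depended.

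**Figure D4:**
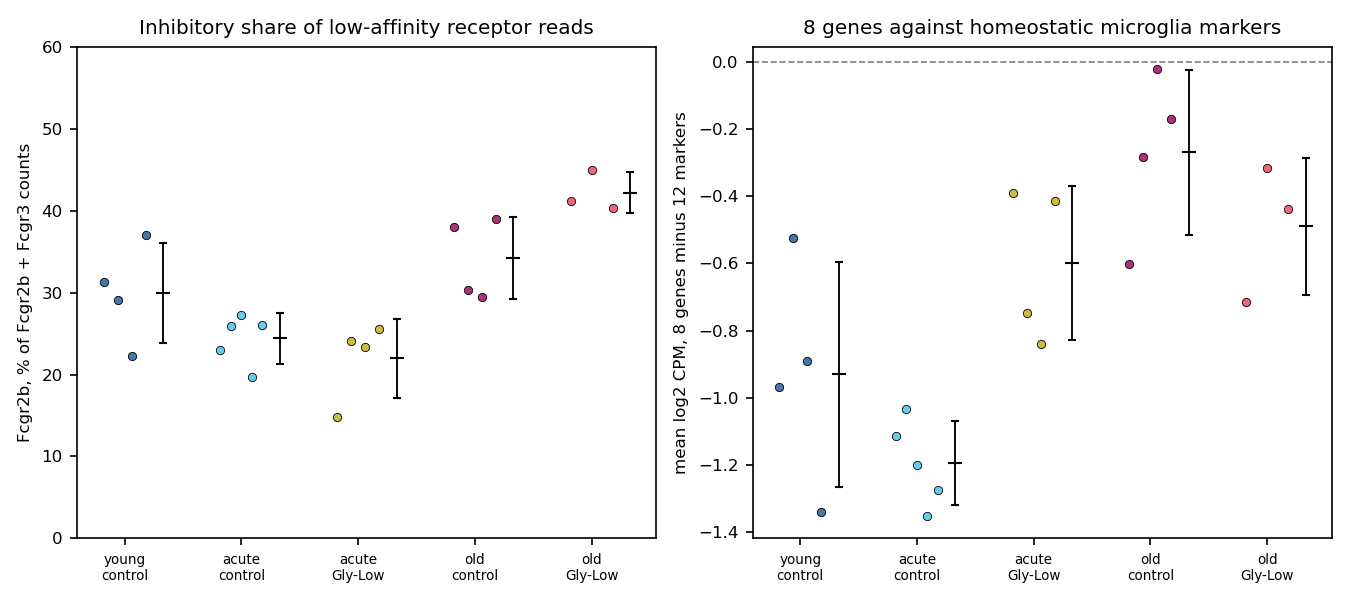
Left, Fcgr2b counts as a percentage of Fcgr2b and Fcgr3 counts (y axis from 0); right, mean log2 CPM of the 8 genes minus that of the 12 homeostatic microglia markers (y axis), in each library (points) with the group mean and SD (bars). All 3 old Gly-Low libraries (40.4 to 45.0%) lie above all 4 old controls (29.5 to 39.0%) on the left.

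Upstream sequences are shown, since the 8 genes moved unequally in the acute arm, for the 4 genes whose 250 bases before the RefSeq start (GRCm38.p6) hold no annotated exon. Capitals mark GAGGAA, the core bound by the myeloid factor PU.1, and GGAAGT, a core of the ETS family, on either strand; the 2 motifs may overlap. The windows are chr19:12460520-12460769 (plus strand) for Mpeg1, chr3:95526536-95526785 (plus) for Ctss, chr11:69666171-69666420 (minus) for Cd68 and chr3:96293970-96294219 (minus) for Fcgr1, each printed 5′ to 3′ on the strand of its gene.
Mpeg1: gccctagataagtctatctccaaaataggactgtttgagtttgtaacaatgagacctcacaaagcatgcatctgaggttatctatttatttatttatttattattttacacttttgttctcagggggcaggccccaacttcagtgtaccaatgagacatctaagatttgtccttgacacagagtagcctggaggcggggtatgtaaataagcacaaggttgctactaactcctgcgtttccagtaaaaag
Ctss: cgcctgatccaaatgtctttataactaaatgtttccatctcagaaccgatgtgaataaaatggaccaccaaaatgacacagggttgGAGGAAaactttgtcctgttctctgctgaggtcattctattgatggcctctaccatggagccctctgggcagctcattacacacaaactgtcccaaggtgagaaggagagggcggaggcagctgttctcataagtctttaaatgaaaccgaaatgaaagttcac
Cd68: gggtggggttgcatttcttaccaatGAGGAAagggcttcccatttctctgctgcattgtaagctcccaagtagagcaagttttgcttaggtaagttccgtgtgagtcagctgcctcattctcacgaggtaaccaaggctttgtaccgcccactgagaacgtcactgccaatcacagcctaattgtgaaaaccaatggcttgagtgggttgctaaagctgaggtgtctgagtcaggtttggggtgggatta
Fcgr1: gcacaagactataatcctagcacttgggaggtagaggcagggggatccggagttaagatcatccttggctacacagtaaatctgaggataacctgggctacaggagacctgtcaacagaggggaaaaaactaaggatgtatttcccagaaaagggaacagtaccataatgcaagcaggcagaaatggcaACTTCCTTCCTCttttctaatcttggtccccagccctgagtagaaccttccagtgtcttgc
Mpeg1, with the largest difference with age, has no match in its window. The counts that follow cover all 8 genes, also Ptprc, Fcgr2b, Fcgr3 and Fcer1g, whose windows hold an annotated exon and are not printed. GAGGAA was in the windows of 5 of the 8 genes (Ctss, Cd68, Ptprc, Fcgr1 and Fcgr3), against 23.1% of 27025 RefSeq promoters. GGAAGT was in 3 of 8 (Ptprc, Fcgr1 and Fcgr2b), against 20%. Of these matches, those in Ptprc, Fcgr2b and Fcgr3 lie in windows with an exon. The E-box core CACGTG of lysosomal gene promoters was in 0 of 8, against 6.05%, the AP-1 site TGANTCA in 1 of 8 (Cd68, 2 matches), against 6.87%, and the interferon response element in 1 of 8 (Ctss), against 3.04%. A match says only that the letters are there, and no match only that they are not in this window.

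Other Fc and Fc-like receptors were mostly at or near 0. Of 13 listed, 6 passed the filter in the ageing arm and 4 in the acute arm. Fcgr4, the other activating low-affinity receptor, averaged 0.16 CPM in young and 1.5 CPM in old controls, and Fcgrt, the neonatal Fc receptor, 22.5 and 19.1 CPM. In the acute arm 2 of 4 tested were called higher, Fcgrt (0.35 ± 0.14, edgeR adjusted p = 0.0443) and Fcrls (0.32 ± 0.13). The mast cell and basophil receptor genes Fcer1a and Ms4a2 averaged at most 0.13 CPM in any group.

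Of 31 ITAM and ITIM signalling genes tested in the acute arm, 4 were called higher and 7 lower, smaller shares than the 27.8% and 30.5% of all genes, and 6 and 6 with the length offset. Tyrobp, an ITAM adaptor like Fcer1g, rose from 9.30 ± 0.63 to 38.8 ± 10.1 CPM (2.08 ± 0.18, edgeR adjusted p = 4.09e-07), and Trem2 (1.00) and Lair1 (1.21) also rose. With the length offset the log2 fold change was 0.60 for Tyrobp, whose transcript has 564 bases, 0.12 for Trem2 and 1.31 for Lair1. Cbl (-1.58), Sirpa (-0.88) and the phosphatase gene Inpp5d (-1.69 ± 0.36, edgeR adjusted p = 0.000911), whose product SHIP acts downstream of FcγRIIB, fell.

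The counts for the next lists are to be read against the same shares of all genes. Of 13 lysosomal proteases and partners tested in the acute arm, 6 were called higher and 6 lower: Ctsh (1.63), Ctso (1.29) and the cathepsin inhibitor Cst3 (1.65) rose, and Tpp1 (-1.55), Ctsa (-0.88) and Lgmn (-0.67) fell. Of 26 genes of lysosomal membrane, hydrolases and lipid handling, 6 were called higher, among them Lyz2 (1.85), Cd63 (1.33) and Npc2 (0.98), and 12 lower, among them Gaa (-2.69), Glb1 (-1.58) and Npc1 (-1.73). Of 18 other pore-forming and phagosome genes, 8 were called higher and 1 lower, with a median of 0.94 beside -0.07 over all genes. Cyba, a subunit of the phagocyte oxidase, rose by 1.72 and Tlr7 by 1.88, while Axl fell by 0.71 on the log2 scale.

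Of 12 partners of CD45 and leukocyte adhesion genes tested, 5 were called higher and 3 lower: Cd53 (2.13), Cd52 (2.55) and Cd48 (2.39) rose, and Cd44 (-1.02), Selplg (-0.79) and Itgam (-1.0) fell. Of 11 myeloid transcription factors 0 were called higher and 2 lower, Sall1 (-1.04) and Nfatc2 (-0.82). Spi1, which encodes PU.1, averaged 2.47 CPM in acute controls and 2.57 CPM in acute Gly-Low and was not called. Of the genes named in these lists, Trem2, Itgam, Axl, Sall1, Nfatc2, Fcgrt and Fcrls were not called in the acute arm with the length offset. Short transcripts kept their call with smaller values: Tyrobp 0.60, Cst3 0.50, Cyba 0.47, Cd63 0.44 and Cd52 1.06. Of the named genes that rose and kept their call, Ctso (1.67), Npc2 (1.35), Tlr7 (2.31) and Lair1 (1.31) were larger with it.

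In the old diet comparison 0 genes of these 7 lists were called. In old Gly-Low against acute controls the called genes were Lyz2 (1.72 ± 0.29, edgeR adjusted p = 0.0242) and Slc11a1 (1.53 ± 0.29, edgeR adjusted p = 0.0385) of the lysosomal list, Trem2 (1.04), Cd52 (2.19) and Clec7a (2.97), 1 each of the ITAM, CD45 partner and phagosome lists, all higher. Among old against young controls, medians by list were 1.21 for the 6 other Fc and Fc-like receptors that passed the filter, 0.25 for the lysosomal proteases, 0.13 for the lysosomal membrane list, 0.72 for ITAM and ITIM genes, 0.62 for CD45 partners, 0.65 for phagosome genes and 0.67 for the transcription factors, each beside 0.02 over all genes and 1.23 for the 8 members. The median of 1.21 covers only 6 of the 13 Fc and Fc-like receptors listed. Genes low in young controls, such as Fcgr4, may have passed the filter only through the old libraries. Nothing is therefore read from that median beside the 1.23 of the members. No test compared the lists.

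The 8 genes also varied among themselves. Over the 20 libraries, the root mean square difference between a gene's centred log2 CPM and the mean of the other 7 was smallest for Ctss (0.28) and Fcgr1 (0.29) and largest for Cd68 (0.56) and Fcgr3 (0.53). Among 19053 other genes, those with the smallest such difference to the mean of the 8 were Trem2 (0.213), Adgre1 (0.222), H2-T23 (0.259), C1qb (0.267), Tlr2 (0.289), Plek (0.296), Gbp6 (0.301) and Naip2 (0.317). Trem2, a lipid-sensing receptor of microglia, averaged 10.8 CPM in young controls, 10.6 and 21.0 CPM in the acute control and Gly-Low groups, and 29.8 and 21.8 CPM in the old ones. Adgre1, which encodes the macrophage antigen F4/80, averaged 5.40, 5.79, 8.56, 14.4 and 14.6 CPM in the same order. Of the 8 named, 6 were also among the 8 genes of highest Pearson correlation. The libraries share groups and library make-up, so the values describe likeness in this data set only.

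By group mean, the old controls were highest for Mpeg1, Ctss, Cd68, Ptprc, Fcgr1 and Fcer1g, old Gly-Low for Fcgr2b and acute Gly-Low for Fcgr3. Neighbouring groups in the order of means overlapped in most cases. The exceptions were the step from old Gly-Low down to acute Gly-Low for Mpeg1 (91.2 to 42.9 CPM) and Ptprc (8.36 to 4.36 CPM), from old Gly-Low to young control for Ctss (154 to 82.4 CPM), and from acute Gly-Low to young control for Fcgr2b (9.43 to 4.94 CPM). For Cd68, Fcgr1, Fcgr3 and Fcer1g, every pair of neighbouring groups overlapped.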

How the data were processed

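RNA of hypothalamus was sequenced in 20 libraries, and the authors deposited raw read counts per gene as whole numbers without normalization, per the file headers and values. Build GRCm38 and the tools HISAT2 2.0.5, DESeq2 1.20.0 and featureCounts 1.5.0-p3 are listed, per the submitters' processing notes, with no role. The annotation release behind the counts is not given in the sources used here. Libraries were non-directional, per the labels' protocols. Samples were grouped by their labels. All columns were mapped to a sample.

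Counts were fitted in R 4.3.3 with edgeR 4.0.16 (filterByExpr, TMM scaling, quasi-likelihood test, Benjamini-Hochberg adjustment over all genes tested, threshold 0.05). The acute diet comparison was fitted on the acute arm, the age, old diet and old Gly-Low against young comparisons on the ageing arm, and the others on all 20 libraries. Alternatives were DESeq2 1.42.0, its size factors, other filters (none, or CPM of 1 in 3 libraries), other sets of libraries, each library left out, a replicate block, and an offset that removes each library's trend over 40 bins of transcript length. The SE is the log2 fold change over the root of the test's F, and 95% intervals use its t distribution. The log2 CPM used a prior count of 2. The scripts were tested on simulated data. GENCODE M21 (GRCm38) matched 54409 of 54532 genes; promoters and their sequences came from RefSeq (GRCm38.p6). Binomial intervals are exact (Clopper-Pearson, 95%) and cover counting error only.

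The 8 genes and the 19 lists of markers and pathway genes were chosen with earlier results of these data known; 7 genes are in more than 1 list and 0 of the 8 in any. Named genes are all 8 members, at most 3 called genes of smallest p in each direction from each pathway list, and the 8 genes of closest profile. F13a1, Mrc1, P2ry12, Csf1r, Spi1, Fcgr4, Fcer1a and Ms4a2 fall outside that rule and were chosen after their values were seen. For old control and old Gly-Low, same-numbered libraries deviated together in all 3 pairs (correlations 0.253 to 0.417), although 0 of 3 correlated best with its own number and the column names carry other numbers.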

Additional observations from a re-analysis of the deposited data

Results flagged for a closer look

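The diet effect differed between the arms in 5 genes by the test of the difference itself, old diet effect minus acute diet effect, in edgeR's quasi-likelihood test with Benjamini-Hochberg adjustment. On the log2 scale the difference was -1.65 for Ctss, -1.12 for Fcgr1, -1.18 for Fcgr2b, -1.95 for Fcgr3 and -1.56 for Fcer1g. With the length offset the differences of Fcgr2b (-0.68) and Fcer1g (-0.02) were not called, and that of Fcgr1 was not called with no filter, with the replicate block or without any 1 of 5 libraries. Dixon's criterion was applied to 36 groups of values of the 8 genes and their ratios, and no library stood apart from the others. These 36 do not cover all 8 genes in all 5 groups. With 3 to 5 libraries in a group, the criterion can miss a library that stands apart.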

How the results depend on the processing

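In the acute diet comparison 126 of 136 values of single genes kept their direction and their side of the threshold, in old diet 114 of 128, in age 120 of 136, in old Gly-Low against young control 108 of 128, in acute control against young control 125 of 144, in old Gly-Low against acute control 105 of 136, and in the difference of diet effects 188 of 200. The causes of the changes below were not tested.

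With the length offset, 1 member was called lower in the acute diet, 2 higher with age, 2 in old Gly-Low against young, and 0 lower in acute against young control. Directions reversed there for Fcer1g in acute diet (-0.0649), Ptprc (-0.26) and Cd68 (0.20) in old diet, and Ctss (0.15), Ptprc (-0.0176) and Fcgr3 (0.16) in acute against young control. All genes called were then 18, 21, 238 and 4395 for age, old Gly-Low against young, acute against young control and the difference, from 6, 1, 1009 and 6859.

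DESeq2 called 6 members with age, 3 in old Gly-Low against young and 7 in old Gly-Low against acute control, with 301, 380 and 153 genes, and 1653 genes in acute against young control and 2 in old diet. With all 20 libraries fitted, 5 members (120 genes) were called with age and 3 (159 genes) in old Gly-Low against young. Without a filter these were 2 members (11 genes) with age and 9 genes in old Gly-Low against young. With the groups compared alone, 0 members were called with age (0 genes), 0 in old Gly-Low against young (0 genes) and 0 in acute against young control (3 genes), and 20 genes in old Gly-Low against acute control.

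For Ptprc, with an old diet value near 0, reversed values were -0.0126 (DESeq2), -0.0131 (its size factors), -0.0104 (CPM filter), -0.0226 (all 20 libraries), -0.0172 (the groups alone) and -0.0599 (replicate block). Leaving out 1 library gave Ptprc -0.1777 to 0.1114 in old diet, -0.0083 to 0.2173 in acute diet and -0.2767 to 0.021 in the difference. For Cd68 in old diet the values were -0.1909 to 0.1868 with 1 library left out and 0.0384 without young control 2 and old control 3. For Fcer1g in old Gly-Low against young they were -0.0248 to 0.3187, and for Fcgr3 in acute against young control -0.2573 to 0.0168, with 1 library left out.

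Without acute controls 2, 3 and 5, 0 members were called in acute against young control (0 genes; Ctss 0.0966, Fcgr3 0.14) and 0 in old Gly-Low against acute control (0 genes), and 4506 genes in the difference. Without young control 2 and old control 3, 0 members were called in old Gly-Low against young and 0 in acute against young control (402 genes; Ctss 0.0036), with 2 genes for age.

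Leaving out 1 library gave 4 to 5 members in acute diet, 0 to 1 with age (0 to 6 genes), 0 to 3 in old Gly-Low against young (0 to 329 genes), 0 to 1 in acute against young control (0 to 3957 genes), 2 to 3 in old Gly-Low against acute control (4 to 27 genes) and 4 to 5 in the difference.

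With the replicate block, 2 members were called with age, 4 in old Gly-Low against young (2973 genes), 0 in acute against young control (0 genes), 2 in old Gly-Low against acute control (4 genes), 4 higher in acute diet (8583 genes) and 4 lower in the difference; the call lost was that of Fcgr1 in both (edgeR adjusted p = 0.109 and 0.0638). Acute control and acute Gly-Low libraries of the same number share only a number (correlations -0.0422 to 0.00164), as do young and old controls (-0.0495 to 0.600; 2 of 4 best with their own number).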
